A study of Bos taurus with 12 samples.

Results

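The high and low methylated eluates of tough Angus beef were compared peak by peak. Peaks of the libraries HTO_1, HTO_2, LTO_1 and LTO_2 that shared 1 bp or more were joined into regions on chromosomes 1 to 29. A region was called high-only when both HTO libraries and no LTO library had a peak in it, and low-only when both LTO libraries and no HTO library had one. It was called all-four when every library had one. Of 47279 joined regions, 1983 were high-only (4.19%), 6600 were low-only (14.0%) and 4880 were all-four (10.3%). The 4 libraries belong to a series of 12 made from longissimus muscle (longissimus dorsi in the labels) of Angus steers of about 12 months on 1 common diet. HTO is the high methylated and LTO the low methylated eluate of tough beef, HTE and LTE are the same eluates of tender beef, and MTO and MTE are the medium eluates. Tough and tender animals were taken from the ends of the shear force range of the herd, and 2 animals were sequenced per group. HTO and LTO are therefore eluates from the same 2 tough animals. The exact permutation tests below do not use this sharing, and a version paired by replicate number is given at the end. The DNA came from whole muscle, so cell types were not separated.

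In MBD-seq, sheared DNA is captured by a methyl-CpG binding protein and released in steps of salt, so that fragments are sorted by how strongly they are held. The strength of binding follows the number of methylated CpGs on a fragment, and CpG-rich fragments that carry methylation are held more tightly than fragments with few methylated CpGs. Cattle autosomes are acrocentric, with the centromere close to the first base, so the last bases of each chromosome are those next to the distal telomere. The sources used here contradict each other on which salt concentration released which fraction, so the libraries are named only by the methylation level and eluate in their labels. The CpG content behind these names, the genes and the sequence of the regions were not analysed here.

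The low eluate gave more peaks than the high eluate in tough beef. HTO_1 had 10178 autosomal peaks, HTO_2 had 11879, LTO_1 had 27783 and LTO_2 had 28599. Both LTO libraries lay above both HTO libraries, with 2.56 times as many peaks by the mean log2 value (two-sided exact permutation test on the log2 scale, p = 0.333, the smallest that 2 libraries against 2 allow). The depth moved with this count: after duplicate removal, 3677473 and 3721723 tags remained in HTO and 7981292 and 7212507 in LTO. Per 1000000 tags the LTO libraries also lay above, with 3481 and 3965 peaks against 2768 and 3192, a 1.25-fold difference (exact permutation p = 0.333). The part of depth in the number of peaks was not tested beyond this ratio. In tender beef the numbers of autosomal peaks overlapped, with 11057 and 12784 in HTE and 9555 and 16881 in LTE.

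The peaks of the 2 eluates differed in width. The median peak was 280 bp in HTO_1, 281 bp in HTO_2, 201 bp in LTO_1 and 181 bp in LTO_2, a mean difference of -89.5 bp for LTO minus HTO, and the libraries of the eluates did not overlap (exact permutation p = 0.333). The narrowest peak of a list equalled d, the fragment length that the peak caller estimated for that library, which was 203 bp in both HTO libraries, 165 bp in LTO_1 and 146 bp in LTO_2. Peaks at exactly this floor were 11.1% and 11.4% of the HTO lists and 24.5% and 23.5% of the LTO lists. Counted above the floor, the median width was 77 and 78 bp in HTO and 36 and 35 bp in LTO, and the order of the eluates was the same as before. With equal numbers of peaks from the libraries the difference of the medians was -33 bp, with means of 288 bp in HTO and 255 bp in LTO. The d of HTO exceeds the d of each LTO library by more than this. Counted above the floor, the order of the eluates would therefore turn at equal numbers of peaks, a combination that was not run.

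**Figure D1:**
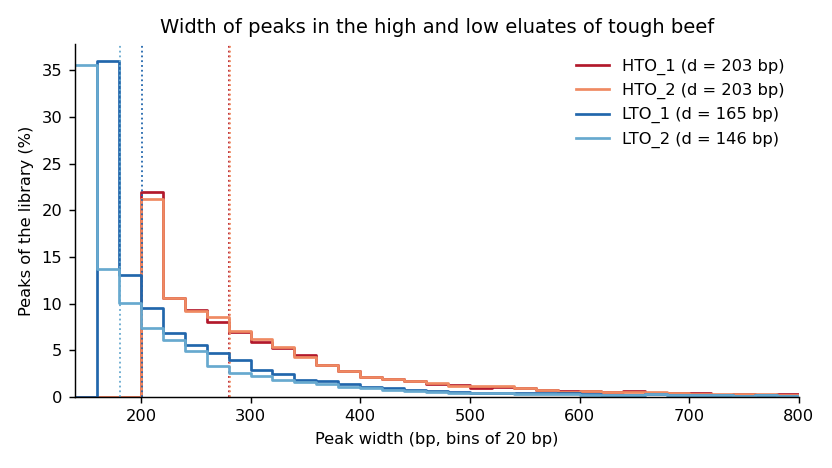
Distribution of peak width in the 4 libraries, in bins of 20 bp (horizontal axis, bp; vertical axis, percent of the peaks of that library); the dotted lines are the medians. Each list starts at its own d, and the HTO medians of 280 and 281 bp lie to the right of the LTO medians of 201 and 181 bp.

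Regions seen in 1 eluate only made up a different part of each eluate. Of the 8167 regions with a peak in both HTO libraries, 24.3% were high-only and 59.8% were all-four. Of the 12820 regions with a peak in both LTO libraries, 51.5% were low-only and 38.1% were all-four. Another 1304 regions were found in both HTO libraries and 1 LTO library, and 1340 in both LTO libraries and 1 HTO library. Most joined regions, 29933 or 63.3%, had a peak in a single library, and 27281 of these came from 1 LTO library. When the strongest 10178 peaks of every library were used, the order of the classes turned, with 3406 high-only and 1623 low-only regions. This setting kept the whole HTO_1 list but cut the LTO lists from 27783 and 28599 peaks. A region with a weaker LTO peak could thus count as high-only. The numbers also depended on having a second library of an eluate: 3802 regions were high-only without HTO_1 and 2982 without HTO_2, and low-only regions numbered 20432 without LTO_1 and 20342 without LTO_2. All-four regions numbered 2413 at a fold enrichment of at least 3 and 1124 among peaks with a pileup under 50.

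Few members stood close to the q limit of the lists, which is 0.01. Under a −log10 q of 3 in the weaker library were 0.30% of high-only and 1.58% of low-only regions. The counts did move at a stricter limit. With peaks of a −log10 q of at least 5 only, high-only regions numbered 2243, low-only 4568 and all-four 4270, beside 1983, 6600 and 4880 with all peaks. The weaker library of a high-only region had a median −log10 q of 8.92 and a lowest of 2.1, and the weaker library of a low-only region had a median of 5.82 and a lowest of 2.05. Just outside the classes, the single LTO peak that kept a region from being high-only had a median −log10 q of 5.91 and a lowest of 2.38. The single HTO peak that kept a region from being low-only had a median of 6.77 and a lowest of 2.1.

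High-only regions crowded towards the distal ends of the chromosomes. Of the 1983, 862 lay in the last 5 Mb of an autosome, which is 43.5% (Wilson 95% interval 41.3 to 45.7%, counting error only), against 13.1% of low-only regions (863, 12.3 to 13.9%), 8.11% of all-four regions (396, 7.38 to 8.91%) and 16.9% of all joined regions. These windows held 5.77% of the 2512 Mb between the chromosome starts and the last listed peaks. The median high-only region lay 7.79 Mb from the distal end, and the median low-only and all-four regions 35.4 and 38.5 Mb. The density of high-only regions was 9.41 per Mb in the last 1 Mb, 8.28 in the next 1 Mb, 4.01 from 2 to 5 Mb, 1.44 from 5 to 10 Mb and 0.34 from 20 to 50 Mb. Low-only regions thinned out more slowly, from 6.66 per Mb in the last 1 Mb to 4.05 from 5 to 10 Mb and 2.07 from 20 to 50 Mb. All-four regions ran from 2.97 to 3.01 and 1.69 per Mb over the same bins. With equal numbers of peaks from the libraries, 31.9% of high-only, 8.38% of low-only and 6.52% of all-four regions lay in the last 5 Mb, and among peaks with a pileup under 50 the shares were 44.6%, 13.9% and 14.5%.

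**Figure D2:**
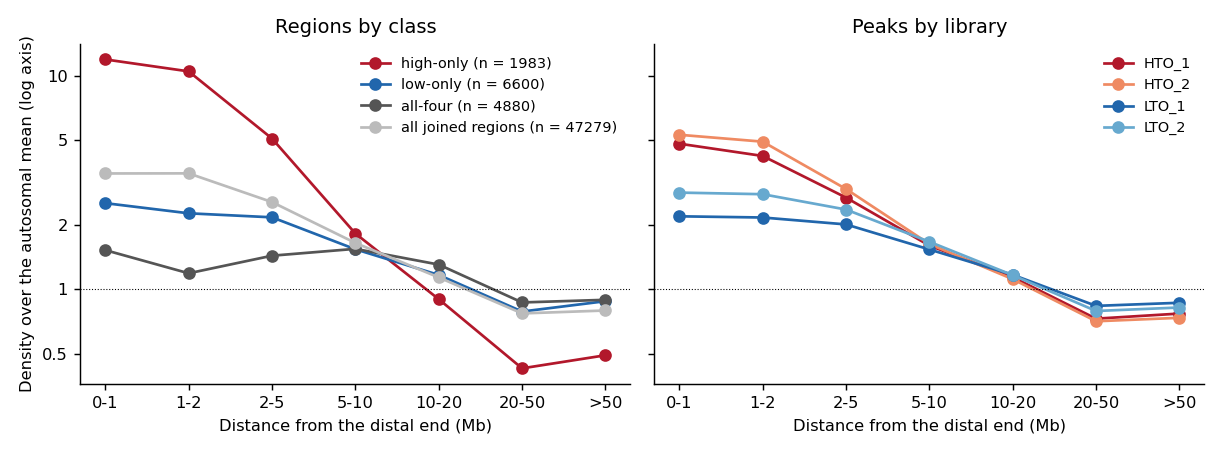
Density of regions by class (left) and of peaks by library (right) against distance from the distal end of the chromosome, each divided by its own autosomal mean, on a log axis. High-only regions lie furthest above the mean in the last 2 Mb, and both HTO libraries lie above both LTO libraries there.

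The same held for all peaks of a library, without any classes. The last 5 Mb held 19.7% of the peaks of HTO_1 and 22.0% of those of HTO_2, against 12.0% in LTO_1 and 14.7% in LTO_2. The libraries of the 2 eluates did not overlap, and LTO minus HTO was -7.52 percentage points (20.9% ± 1.61 against 13.4% ± 1.89, SD, n = 2 libraries each, exact permutation p = 0.333). By chromosome, both HTO libraries lay above both LTO libraries on 22 of 29 autosomes (75.9%), and the reverse held on 2 (6.90%), chromosomes 27 and 28, the latter outside the naming rule and picked with its values in view. On chromosome 28 the last 5 Mb held 17.8% and 19.7% of the HTO peaks and 23.4% and 25.2% of the LTO peaks, and on chromosome 27 it held 11.4% and 11.3% of the HTO peaks and 14.8% and 15.9% of the LTO peaks. Chromosomes 27 and 28 were also those where the share of high-only regions in the window was not above that of low-only regions. Tender beef, whose libraries had no part in the classes, showed 21.6% and 23.8% in HTE against 11% in each LTE library (LTE minus HTE -11.7 percentage points, exact permutation p = 0.333). There, HTE lay above LTE on 26 of 29 chromosomes (89.7%). A large distal share was not particular to the high eluate. The medium eluates had 22.4% and 21.9% in MTO_1 and MTO_2, and 22.1% and 22.7% in MTE_1 and MTE_2.

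At the other end, next to the centromere, the eluates were close. The first 5 Mb held 8.30% and 8.45% of HTO peaks and 8.08% and 8.20% of LTO peaks, a difference of -0.24 percentage points that changed direction under 3 of the alternatives tried. High-only, low-only and all-four regions had 7.36%, 9.12% and 8.85% of their members there.

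Windows along the chromosomes differed in how many regions of each class they held. Of 2529 windows of 1 Mb, 764 held a high-only region, 2081 held a low-only region and 1193 held an all-four region. The 103 windows with 5 or more high-only regions contained 920 of them (46.4%), and 67 of these windows were in the last 5 Mb, which is 5.77% of the span. Of the 48 windows with 10 or more low-only regions, 10 were in the last 5 Mb. The fullest was 73 to 74 Mb of chromosome 17, with 23 high-only, 5 low-only and 0 all-four regions. The fullest for low-only regions was the first 1 Mb of chromosome 14, with 78 low-only, 67 all-four and 7 high-only regions.

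The 3 classes differed in how tightly their members were packed. The median gap from 1 region to the next of its class was 167 kb for high-only, 183 kb for low-only and 2.46 kb for all-four regions. A region of the same class lay within 5 kb of 8.02% of high-only, 13.6% of low-only and 69.2% of all-four regions. Of all-four regions, 46.2% had a low-only region within 10 kb and 18% had a high-only one, beside the larger number of low-only regions.

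The close packing of all-four regions was found in those with tall peaks. Pileup, the number of tags stacked at the summit, had 2 separate ranges in these regions, so regions with a pileup of 50 or more in every library with a peak are called tall here, a threshold chosen after the values were seen. Tall regions were 3579 of the all-four (73.3%), 169 of the high-only (8.52%) and 619 of the low-only regions (9.38%). Tall all-four regions had a median gap of 1.15 kb, and 90.6% had another within 5 kb. The 1301 other all-four regions had a median gap of 996 kb, and 6.38% had another within 5 kb. Tall regions of the single-eluate classes were also packed more closely than the rest of their class. Tall low-only regions had a median gap of 6.75 kb and 60.6% within 5 kb, against 212 kb and 8.21% in the others. For high-only regions these were 25.4 kb and 24.3%, against 175 kb and 6.50%. Joined across gaps of up to 10 kb, the tall all-four regions formed 685 runs, and 83 runs of 10 or more held 2131 regions (59.5%) on 24 chromosomes. The longest lay at chr27:28479692-28937908 of bosTau8, with 203 regions over 458 kb. Next came chr8:74484794-74804861 with 146 regions and chr3:82708538-82912387 with 82.

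Peaks of HTO lay closer to each other than those of LTO. The median gap to the next peak was 19.7 and 23.5 kb in HTO and 40.1 and 32.0 kb in LTO, wider in LTO by 14.4 kb (exact permutation p = 0.333), and 48.5% and 43.0% of HTO peaks against 29.9% and 32.9% of LTO peaks had a neighbour within 5 kb. With equal numbers of peaks the gap difference was 44.7 kb and the neighbour difference -3.87 percentage points, against -14.4 with all peaks. Peaks with a pileup of 50 or more were 44.6% and 37.3% of the HTO lists and 18.3% and 19% of the LTO lists. Among peaks with a pileup under 50, both differences turned, to -53.1 kb for the median gap and 4.61 percentage points for the share with a neighbour, each LTO minus HTO. The gap also turned at a fold enrichment of at least 3, to -18.7 kb, and between the merged lists, to -7.94 kb. The share of peaks in the last 5 Mb kept its direction at a pileup under 50, at -15.9 percentage points. Outside these libraries, LTE_1 had 9555 autosomal peaks, 40.1% of them at 50 or more, and a median gap of 51.2 kb. MTE_1 had 33562 autosomal peaks, 16.8% at 50 or more and 16.6 kb. These 2 lists differ in length as well as in tall peaks, and the part of either in the gap was not tested.

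Tall regions, which were chosen by pileup, had high pileup and rank in every class, and most of them were all-four regions. High-only regions had a median pileup of 13 tags in HTO_1 and 16 in HTO_2, and ranked at the 37.3 and 46.2 percentile of the peaks of their library. Low-only regions had 10 tags in both LTO libraries and ranked at the 53.6 and 50.7 percentile, the same medians as all joined regions with a peak in these libraries. All joined regions had 21 and 17 tags in HTO_1 and HTO_2, at the 49.7 and 48.4 percentile. All-four regions had 150, 144, 146 and 121 tags in HTO_1, HTO_2, LTO_1 and LTO_2, and ranked at the 70.1, 75.6, 89.2 and 88.7 percentile. Fold enrichment, the pileup over the local background, ran the other way: it was 7.48 and 8.19 in high-only, 6.12 and 6.43 in low-only, and 3.71, 3.67, 3.06 and 3.3 in all-four regions, beside 6.22, 6.34, 5.97 and 6.38 in all joined regions. These values come from lists of different depth and local background. In tall all-four regions it was 2.95, 2.93, 2.31 and 2.52, against 8.46, 9.06, 7.04 and 7.51 in the other all-four regions, whose pileup medians of 13, 15, 12 and 12 were close to those of the single-eluate classes. Tall high-only regions had 160 and 153 tags in HTO_1 and HTO_2, at the 72.0 and 77.2 percentile, with a fold enrichment of 2.11 and 2.07. Tall low-only regions had 145 and 121 tags in LTO_1 and LTO_2, at the 88.9 and 88.7 percentile, with a fold enrichment of 1.97 and 2.15.

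**Figure D3:**
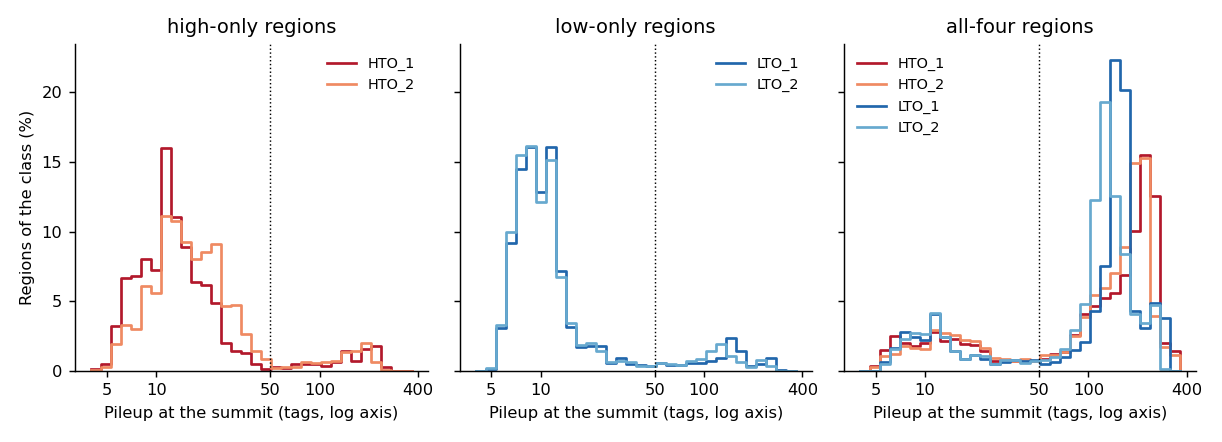
Pileup at the summit (horizontal axis, tags, log scale) in high-only, low-only and all-four regions, as percent of the regions of the class in each library with a peak; the dotted line marks 50 tags. The single-eluate classes peak near 10 tags, and most all-four regions lie above 50.

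Within all-four regions the rank of a peak was higher in the low eluate. Both LTO ranks exceeded both HTO ranks in 3381 of 4880 regions (69.3%), and the reverse held in 533 (10.9%). A larger share of each HTO list had a pileup of 50 or more, and since a rank is set by the other peaks of the list, the 2 cannot be told apart. The highest pileup also met a ceiling: with 1 tag kept per position, a list cannot exceed 2 times d, and the maxima were 405 and 403 of 406 in HTO, 311 of 330 in LTO_1 and 283 of 292 in LTO_2. Across the 4880 regions, which share their genome positions in all libraries, Spearman's rho of pileup was 0.98 between the HTO libraries and 0.95 between the LTO libraries, and 0.64 to 0.73 between eluates. Over tall regions alone it was 0.97, 0.88 and 0.13 to 0.36, and over the other all-four regions 0.80, 0.79 and 0.39 to 0.47. The split into these subsets was made on pileup itself, which limits the range of pileup in tall regions. Summits of regions with 1 peak in each library (4224) lay a median of 13 bp apart between HTO libraries, 26 bp apart between LTO libraries and 47 to 52 bp apart between eluates.

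Regions were widest in the all-four class and narrowest in the low-only class. The median was 334 bp for high-only, 260 bp for low-only and 460 bp for all-four regions, and 497 all-four regions (10.2%), 18 high-only and 4 low-only regions were 1 kb or wider. Defined by a single LTO library, low-only regions had a median of 164 bp without LTO_1 and 185 bp without LTO_2. A joined region spans all its peaks, so widths were also taken from the peak of highest pileup of each library in a region. High-only peaks had medians of 270 and 294 bp, low-only peaks of 213 and 191 bp, and all-four peaks of 327.5, 334, 363 and 333 bp in HTO_1, HTO_2, LTO_1 and LTO_2. Above d, these were 67 and 91 bp for high-only, 48 and 45 bp for low-only, and 124.5, 131, 198 and 187 bp for all-four peaks. In all-four regions both LTO peaks were the wider in 1595 regions (32.7%) and both HTO peaks in 1321 (27.1%). With d taken away, both LTO peaks were the larger in 2766 regions (56.7%) and both HTO peaks in 565 (11.6%).

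The eluates divided their peaks among chromosomes in different shares. On 21 of 29 chromosomes (72.4%) the shares of the HTO and LTO libraries did not overlap, with LTO above HTO on 14 (48.3%) and HTO above LTO on 7 (24.1%). Chromosome 15 had the largest difference towards LTO, holding 2.13% and 2.12% of HTO peaks against 2.94% and 2.77% of LTO peaks (log2 ratio 0.42, exact permutation p = 0.333). Chromosomes 2 and 12 followed, with log2 ratios of 0.30 and 0.29. Chromosome 25 had the largest difference towards HTO, holding 3.64% and 3.79% of HTO peaks against 2.40% and 2.79% of LTO peaks (log2 ratio -0.52, exact permutation p = 0.333), and chromosomes 27 and 8 followed at -0.46 and -0.37. With equal numbers of peaks, 16 chromosomes did not overlap. Chromosomes 27, 8 and 12 then overlapped (-0.04, -0.02 and 0.13, exact permutation p = 0.667 each), while chromosomes 25, 15 and 2 stood at -0.83, 0.27 and 0.25 without overlap. Chromosome 19, which is dense in genes, leaned to LTO at 0.21 but stood at -0.16 with equal numbers of peaks. On gene-dense chromosome 18 (0.13) and on gene-poor chromosomes 6 (-0.03) and 9 (-0.01) the shares overlapped, and with equal numbers of peaks these stood at -0.30, 0.23 and 0.02.

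Chromosome 27 carried 347 tall all-four regions and chromosome 8 carried 441, and both hold one of the longest runs; their part in the shares was not tested. Among peaks with a pileup under 50, chromosome 8 turned from -0.37 to 0.29, chromosome 12 from 0.29 to -0.04, and chromosome 27 moved from -0.46 to -0.13, while chromosome 25 was at -0.66, chromosome 15 at 0.18 and chromosome 2 at 0.15. Of the 21 chromosomes, 8 had the same call on these peaks, 5 had the opposite call and 8 overlapped, beside 20 of all 29 (69.0%) that did not overlap there. In tender beef, 10 of the 21 had the same call, 3 the opposite and 8 overlapped, beside 18 of 29 chromosomes (62.1%) without overlap in either direction. Chromosome 25 was at -0.87 and chromosome 15 at 0.42 in tender beef, and chromosomes 8 and 27 overlapped there, at -0.04 and -0.02.

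**Figure D4:**
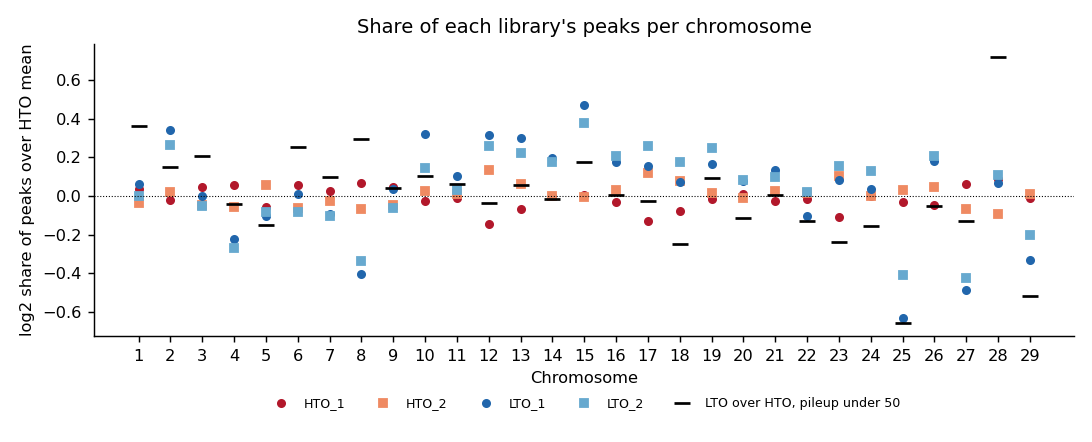
Share of the peaks of each library on each autosome, as log2 ratio to the mean of the HTO libraries; black dashes give the LTO over HTO log2 ratio for peaks with a pileup under 50. Chromosome 25 lies low in LTO by both measures, and chromosome 8 changes side.

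By class, chromosome 25 had 103 high-only and 148 low-only regions, or 2.40 and 3.45 per Mb, the most high-only regions per Mb and the fewest low-only per high-only region (1.44) of the 29 autosomes. Chromosome 28 stood at the other end, with 15 high-only and 123 low-only regions (8.20 low-only per high-only region, 0.32 high-only per Mb). Chromosome 27 held the most all-four regions per Mb (8.84, 401 regions) and the most low-only regions per Mb (5.27).

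The classes were then looked up in libraries that had no part in defining them. High-only regions had a peak in 83.5% and 89.5% of cases in the HTE libraries and in 1.41% and 3.03% in the LTE libraries, a difference of 84.2 percentage points (exact permutation p = 0.333). Low-only regions had a peak in 4.82% and 6.85% of cases in HTE and in 27.9% and 42.0% in LTE, HTE minus LTE -29.1 percentage points (exact permutation p = 0.333). All joined regions, most of them with a peak in 1 LTO library only, served as background, with 20.9% and 23.6% in HTE and 15.9% and 23.4% in LTE (difference 2.60 percentage points, exact permutation p = 0.667). The difference of low-only regions was -14.1 percentage points without LTO_1 and -13.5 without LTO_2. When every library gave its strongest 10178 peaks, or in tender beef its strongest 9555, it was -55.6 over the 1623 low-only regions of that setting. The 3406 high-only regions of that setting had a difference of 76.5 percentage points.

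Region by region, 1507 high-only regions (76.0%) had a peak in both HTE and neither LTE library, against 8.65% of all joined regions, and 0 had the opposite pattern. For low-only regions, 1139 (17.3%) had a peak in both LTE and neither HTE library, against 3.93% of all joined regions, 43 had the opposite pattern, and 3161 (47.9%) had a peak in no tender library of these eluates, against 59.0% of all joined regions. Among high-only regions, 108 (5.45%) had none. All-four regions had a peak in 95.1% and 96.5% of cases in HTE and in 70.5% and 80.8% in LTE, and 3184 (65.2%) had one in all these libraries, against 7.35% of all joined regions. The LTE lists were shorter than the LTO lists, with 9555 and 16881 autosomal peaks, and these region counts were not corrected for it.

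High-only regions had a peak in the medium eluate in a larger share of cases than low-only regions. A peak was present in MTO_1 and MTO_2 for 83.0% and 81.1% of high-only regions, 39.2% and 41.8% of low-only regions and 99.6% and 99.6% of all-four regions, against 37.2% and 38.5% of all joined regions. In tender beef, MTE_1 and MTE_2 had a peak in 74.5% and 81.4% of high-only and in 59.8% and 60.1% of low-only regions, against 46.5% and 47.5% of all joined regions. MTO and LTO come from the same animals, so these are not independent of the classes in the way that tender libraries are.

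**Figure D5:**
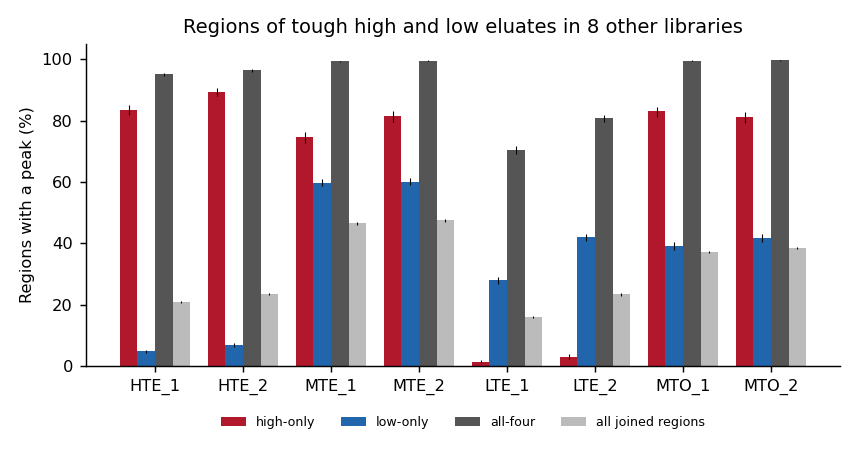
Percent of high-only, low-only, all-four and all joined regions with a peak in each of 8 libraries not used to define them; error bars are Wilson 95% intervals, which cover counting error only. High-only regions were found in 83.5% and 89.5% of cases in HTE and in 1.41% and 3.03% in LTE.

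Peaks called on merged replicates gave a deeper list for each eluate. The merged LTO list, from 13191401 tags, had 119247 autosomal peaks, and 771 high-only regions (38.9%, Wilson 36.8 to 41.05%) had a peak there that neither single LTO list had, with a median −log10 q of 5.38. The other 1212 had none. The merged HTO list, from 5931831 tags, had 16588 autosomal peaks, and 838 low-only regions (12.7%, Wilson 11.9 to 13.5%) had a peak in it. All joined regions, which include those with a peak in a single list of the same eluate, had one in 92.3% of cases in merged LTO and 31.2% in merged HTO. With equal numbers of peaks from the single libraries these shares were 67.1% and 25.1%, and the low-only share was 22.1% without HTO_2, 6.68% without LTO_1 and 6.16% without LTO_2. High-only regions without a merged LTO peak lay in the last 5 Mb in 53.1% of cases (643), and those with one in 28.4% (219), both above the 16.9% of all joined regions. The HTE libraries had a peak in 86.8% ± 4.67 (SD, n = 2 libraries) of the former and 85.9% ± 3.58 of the latter, and the LTE libraries in 0.78% ± 0.41 and 4.47% ± 2.29. Each merged list was called with another version of the caller and is a single list with no replicate.

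Single regions show what the classes look like. Among high-only regions, the highest fold enrichment in the weaker library was at chr1:155275293-155275801, with 22.0 and 23.0 from 74 and 80 tags in HTO_1 and HTO_2. This region lay 3.05 Mb from the end of chromosome 1 and had a peak in both HTE and in all medium libraries and none in LTE, though the merged LTO list had one. At chr21:70561256-70561675 the values were 21.2 and 21.9, 1.04 Mb from the end, and at chr27:28343229-28343564 they were 20.3 and 19.9. Neither of these 2 had a merged LTO peak. The widest high-only region, chr11:103970690-103972126, spanned 1437 bp at a fold enrichment of 8.94 and 7.63.

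The leading low-only region, chr17:50699902-50700184, had 19 and 22.7 from 38 and 45 tags in LTO_1 and LTO_2, and it also had peaks in both LTE libraries and all medium libraries, in HTE_1 and in the merged HTO list. Another region of that chromosome, chr17:50663413-50663739, had 17.8 and 24.0, and chr2:80662529-80662826 had 18 and 18.5. Both had a peak in LTE_1 and LTE_2 and in no HTE library and no merged HTO list. The widest, chr8:108168420-108169915, spanned 1496 bp, and its tallest peaks were 638 and 538 bp wide.

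All-four regions with the highest fold enrichment were strong in every library. At chr24:35875016-35875518 it was 29.8, 29.2, 32.0 and 34.2 in HTO_1, HTO_2, LTO_1 and LTO_2, from 187, 184, 191 and 171 tags. At chr1:47770076-47770563 it was between 29.2 and 31.8, and at chr2:123931135-123931598 between 27.7 and 32.1. All 3 had a peak in each of the 8 other libraries. The widest region of the comparison, chr11:13094983-13099660, spanned 4678 bp with a fold enrichment between 2.86 and 3.08. Its tallest peaks measured 3883 and 3184 bp in HTO and 787 and 734 bp in LTO.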

How the data were processed

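MBD-seq libraries of longissimus muscle from tough beef (HTO and LTO, from the same 2 animals) were analysed, with HTE, LTE, MTE and MTO as outside libraries. Per the labels and the list headers, the authors filtered reads with SOAPnuke, mapped them to bosTau8 with BWA 0.7.7, kept unique reads, and ran MACS2 with no input, q 0.01, 1 tag of 50 bp per position and a 10000 bp background (2.1.1.20160309 for single lists, 2.1.0.20150731 for merged ones). The deposited pileup is a signal in tags, not scaled to depth. Fold enrichment is a ratio to local background, and −log10 p and −log10 q are the authors' values. They were used unscaled, so class medians, q-values and pileup correlations set side by side across lists carry the depth and background of each list. After duplicate removal the depth was 3677473 to 7981292 tags.

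Regions were joined in Python 3.11.15 (numpy 2.4.6, pandas 2.3.3, scipy 1.17.1), checked against bedtools 2.31.1 and tested on simulated data from LTO_1 peaks. All 200 planted regions of each class were recovered. The planted peaks lay far apart and had the same width in every library. Close packing and the different d of the lists were therefore not covered by this test. Library values were compared with the two-sided exact permutation test, and shares of regions carry Wilson intervals. A chromosome ended at its last listed peak. The members, classes and chromosome lists were chosen with earlier results of these data known. Named regions were, per class, the 3 with the highest fold enrichment in their weakest library and the widest. Named chromosomes were the 3 largest log2 ratios in each direction, 18, 19 and 25 as gene-dense and 6, 9 and 12 as gene-poor, from textbook knowledge. Alternatives were stricter q and fold limits, equal numbers of peaks, chromosome X, joining across 500 bp, 50% overlap, 10 Mb and 1 kb windows, merged lists, left-out libraries and a replicate block. Width minus d, peaks with pileup under 50, and the position of class regions and tender peaks along chromosomes were added after seeing the data.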

Additional observations from a re-analysis of the deposited data

Results flagged for a closer look

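Some measures differed between low and high eluates one way in tough and the other way in tender beef, with both libraries of one eluate on one side in each beef. None of these reversals was itself tested. Peaks per 1000000 tags were higher in LTO than in HTO by 743 and differed by -535 for LTE minus HTE. The share of peaks in the first 5 Mb differed by -0.24 percentage points for LTO minus HTO and by 1.07 for LTE minus HTE. The log2 share of peaks, low over high, was 0.21 in tough and -0.14 in tender beef on chromosome 19, 0.082 and -0.11 on chromosome 24, and 0.19 and -0.19 on chromosome 26. Chromosomes 24 and 26 lie outside the naming rule and were picked with their values in view. With equal numbers of peaks, tough beef stood at -0.16, -0.24 and -0.05 on chromosomes 19, 24 and 26. The first 5 Mb then stood at 1.43 percentage points for LTO minus HTO. These tough values have the signs of the tender values above, which were taken with all peaks, so these reversals depend on the lengths of the lists used.

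Peaks outside the autosomes took no part in the classes. Chromosome X held 371 peaks in HTO_1, 404 in HTO_2, 885 in LTO_1 and 818 in LTO_2, or 3.52%, 3.29%, 3.09% and 2.78% of each list. The mitochondrial genome held 1, 1, 3 and 1 peaks in the same libraries.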

How the results depend on the processing

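Of 394 alternative values, 27 changed direction, 56 counts, widths or shares moved, and 311 did neither. For signed differences this means only the same sign: with equal numbers of peaks, width went from -89.5 to -33.0 bp, neighbours from -14.4 to -3.87 percentage points, the gap from 14.4 to 44.7 kb, chromosome 8 from -0.37 to -0.02 and chromosome 27 from -0.46 to -0.04, and log2 peaks went from 1.36 to 0.32 per 1000000 tags. With 2 libraries against 2 no p could pass 0.05 under any of them. The direction of the number of peaks, of width and of the last 5 Mb, and of HTE minus LTE at high-only and low-only regions, was the same under every alternative run. Width minus d was run with all peaks only, not with equal numbers of peaks. Order below is high-only, low-only, all-four unless stated, and the cause of a change was not tested. At −log10 q of at least 5, the share of regions in the last 5 Mb was 39.5, 11.4 and 7.19%, the merged-list shares were 35.4% (high-only in LTO) and 15.5% (low-only in HTO), the first 5 Mb gave 0.0898 percentage points for LTO minus HTO, and chromosome 6 gave 0.028. At fold enrichment of at least 3, all-four regions numbered 2413 with a median of 546 bp, high-only and all-four shares in the last 5 Mb were 38.3 and 10.7%, merged-list shares 30.6 and 11.3%, the gap -18.7 kb, chromosome 6 0.198 and chromosome 18 -0.022. With equal numbers of peaks (merged lists left whole), regions numbered 3406 high-only and 1623 low-only, medians were 277 bp (low-only) and 502 bp (all-four), last 5 Mb shares 31.9, 8.38 and 6.52%, merged-list shares 67.1 and 25.1%, the first 5 Mb 1.43, and chromosomes 6, 9, 18, 19, 24 and 26 gave 0.228, 0.023, -0.301, -0.162, -0.242 and -0.0507. Joining across 500 bp gave 46.2% (high-only in the last 5 Mb), 633 bp (all-four) and 36.6% (high-only in merged LTO). Overlap of 50% gave merged-list shares of 45.2 and 13.7%. Windows of 10 Mb gave 54.0, 22.0 and 17.05% at the distal end and 1.51 at the first. The gap between merged lists was -7.94 kb. With a pileup under 50, chosen after seeing the data, the gap was -53.1 kb, neighbours 4.61 percentage points, all-four regions 1124 with a median of 433.5 bp, low-only and all-four shares in the last 5 Mb 13.9 and 14.5%, merged-list shares 35.9 and 11.1%, and chromosomes 6, 8, 9, 12, 18, 24 and 26 gave 0.253, 0.295, 0.0397, -0.0379, -0.251, -0.157 and -0.0502. Leaving out each library in turn gave 2527 to 3802 high-only and 7103 to 20432 low-only regions, widths of 244 to 332, 164 to 266 and 413 to 432 bp, last 5 Mb shares of 37.4 to 43.4, 12.8 to 16.0 and 8.02 to 10.1%, merged-list shares of 37.0 to 56.0 and 6.16 to 22.1%, chromosome 6 at -0.0935 to 0.0256 and chromosome 9 at -0.0624 to 0.0355.

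Replicate numbers are not said to mark the same animal in HTO and LTO. The replicate 1 minus replicate 2 differences in chromosome share correlated at 0.15 over 29 chromosomes. With a replicate block, the mean differences stay as given, for example -7.52 percentage points in the last 5 Mb and 1.36 for log2 peaks, with a paired sign-flip p of 0.5, the smallest that 2 pairs allow, and 27 chromosomes had both pairs on one side.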
